A study of Rattus norvegicus with 9 samples.

Results

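The comparison described here is that of rat nucleus pulposus cells made senescent with doxorubicin (SEN) against control cells (NC), by poly(A) RNA sequencing, across all genes of the deposited count table. Its members were chosen by sample title and are 6 of the 9 libraries of the series, 3 in SEN and 3 in NC. All were labelled as primary nucleus pulposus cells of wild-type genotype, grown in high-glucose medium with 10% serum. Per the labels, senescence was induced by 24 h in 200 nM doxorubicin and 6 further days in drug-free complete medium. The same protocol text is attached to all samples. NC is treated here as the drug-free control because of its title, because it alone has no treatment label and because the design text names wild-type cells as a group. The labels do not say whether NC cells received a vehicle or the same days in culture. Whether replicates are separate cultures is not stated, so the p-values reflect only how far the libraries scatter, and that scatter may be technical. The scatter was estimated with the third group of the series, BNPMT, included.

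The nucleus pulposus is the soft centre of the intervertebral disc, whose cells make a matrix rich in aggrecan and type II collagen. Doxorubicin poisons topoisomerase II and breaks DNA, and cells that survive such damage can leave the cell cycle for good while staying alive. This state, senescence, is known for p53-driven arrest, loss of lamin B1, an enlarged lysosomal compartment and the secretion of cytokines, growth factors and matrix proteases. The comparison asks which of these and of other gene groups differed between SEN and NC cells, and how far the answer depends on the scale on which libraries are compared.

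Total counts were 34514440 to 41873790 in NC and 31206834 to 38391586 in SEN, and 3 counts were worth 0.0716 to 0.0961 CPM (CPM, counts scaled to a common library total). SEN libraries had counts for 18954 to 19321 genes and NC libraries for 17336 to 17604. SEN 1 stood apart from SEN 2 and SEN 3: its deviation from the group mean had a Spearman correlation of -0.42 with transcript length across genes, against 0.26 and 0.23 in SEN 2 and SEN 3 and -0.20 to 0.15 in NC. Counts for a gene list without SEN 1, or with the length trend of each library taken out, are therefore given where they turned the larger side or moved a count by more than 1.5 times (in parentheses, genes higher and then genes lower, against the TMM counts). The length trend was fitted to each library's deviations from the gene means, so the library's mean level was taken out with it. Values without the length trend thus also stand on another scale than TMM. Of 11 nucleus pulposus markers with a row of counts, 8 passed the filter on low counts. Krt8, Krt19, Cd24 and Slc2a1 were higher on both scales, Hif1a under TMM alone, and Car3 (172 to 178 CPM in NC and 78.8 to 80.1 in SEN), Foxf1 and Pax1 (131 to 141 CPM in NC and 51.1 to 53.9 in SEN) lower on both. Krt19 was low, at 0.0955 to 0.464 CPM in NC and 0.449 to 0.764 in SEN, and its groups overlapped. Krt18 (0 to 0.0247 CPM in NC, 0.128 to 0.198 in SEN), Car12 (0.0579 to 0.0955 and 0.234 to 0.65) and Tbxt, the notochord factor (0.0494 to 0.143 and 0 to 0.113), did not pass the filter. Disc matrix genes were abundant, with Col2a1 at 4453 to 4690.1 CPM in NC and 6406 to 6574 in SEN and Acan at 580.0 to 599 CPM in NC and 644 to 712 in SEN. Markers of fibroblasts and annulus cells were more abundant still (summed 43627 to 45234 CPM in NC and 42116 to 42275 in SEN), most of it Col1a1 (29905 to 31120 and 30338 to 30703). Of these 11 markers 6 were higher and 4 lower under TMM, and 3 and 6 under total counts. Osteoblast markers summed to 1252 to 1288 CPM in NC and 1431 to 1460 in SEN, most of it Spp1 (1212 to 1247 and 1400 to 1432). Neural and Schwann markers summed to 192 to 197 and 244 to 252, and adipocyte markers to 11.6 to 12.3 and 13.9 to 15. Macrophage markers summed to 15 to 16.4 and 32.7 to 35.7 CPM, endothelial markers to 4.08 to 4.4 and 9.07 to 10.9, and erythroid markers to 0 and 0.0641 to 0.234. Cd68, a lysosomal glycoprotein used as a macrophage marker, was at 0.191 to 0.782 CPM in NC and 21.1 to 24.6 in SEN and Pecam1, an endothelial adhesion molecule, at 0 to 0.0494 and 3.87 to 4.33. Itgam, an integrin chain of myeloid cells, had no count in NC and 3.96 to 3.98 CPM in SEN, and Lyz2 was higher as well. Cd14 (11.1 to 11.8 CPM in NC and 4.01 to 4.06 in SEN) and Laptm5 (2.75 to 3.03 CPM in NC and 1.07 to 1.41 in SEN), of the same list, were lower on both scales, and Fcgr2b under total counts alone. Csf1r did not pass the filter (0 to 0.123 CPM in NC and 0.256 to 0.537 in SEN). Adgre1 and Tyrobp, of macrophages, had no count in any SEN library, and the endothelial genes Cdh5, Tie1 and Emcn had none in NC and summed to 2, 1 and 4 counts in SEN. Erg, the most abundant endothelial marker in NC (2.794 to 3.038 CPM, and 3.525 to 5.966 in SEN), was higher on both scales. So was Kdr (0.0478 to 0.174 CPM in NC and 0.3126 to 0.3525 in SEN). Tek (0.716 to 1.099 CPM in NC and 0.391 to 0.481 in SEN) was lower under total counts alone, and Vwf was not called. The part of such cells in the results was not tested.

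Most tested genes differed between SEN and NC, but how many were called higher and how many lower depended on the scale. Under TMM, which scales libraries so that the middle of the genes stays level, 11382 of 14956 tested genes (76.1%) had an adjusted p below 0.05, 5628 higher in SEN (37.6%) and 5754 lower (38.5%). With total counts alone as the scale 12180 were called (81.4%), 3667 higher (24.5%) and 8513 lower (56.9%). The TMM factors were 1.10, 1.10 and 1.10 in NC and 0.797, 0.805 and 0.805 in SEN, so that the 2 scales differed by 1.37-fold, or 0.45 on the log2 scale, with SEN higher under TMM. Over all tested genes the median log2 change was -0.01 under TMM and -0.46 under total counts. RNA per cell was not measured in the files used here, and neither scale says whether a cell held more or fewer molecules of a gene.

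**Figure D1:**
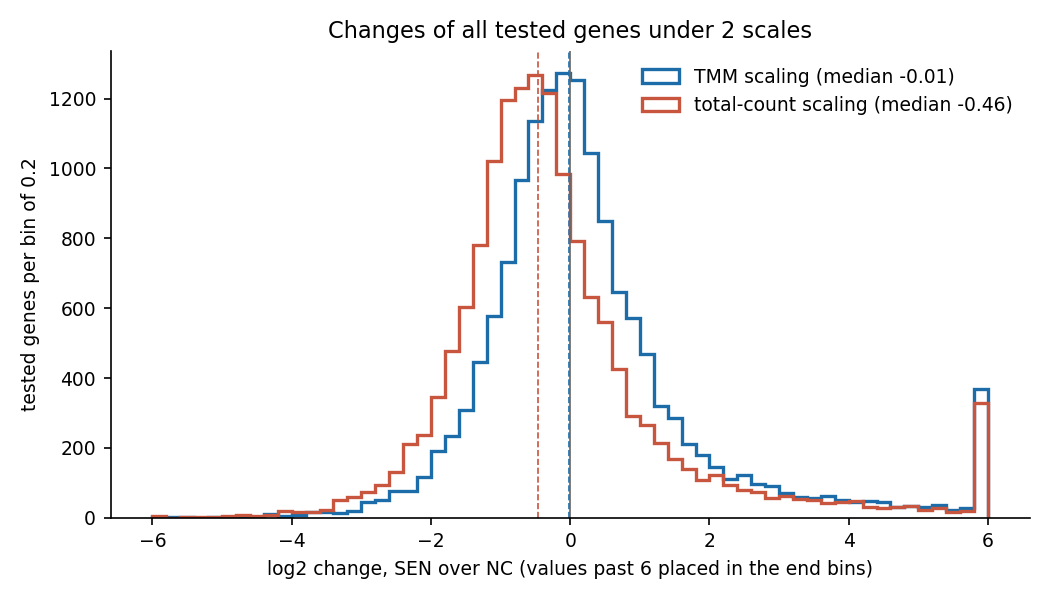
Histogram of the log2 change of SEN over NC for 14956 tested genes, under TMM (blue) and total counts (red), with dashed lines at the medians. The curves have the same shape and are shifted by 0.45, and the long tail lies to the right, on the side of higher levels in SEN.

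Calls that held on both scales numbered 9421 (63.0% of tested genes), 3667 higher and 5754 lower. A further 1556 genes were higher under TMM and not called under total counts, 2354 were lower under total counts and not called under TMM, and 405 (2.71%) were called in opposite directions. On neither scale was a change called for 1220 genes. The distribution was lopsided at its ends: under TMM 995 genes (6.65%) were called higher by more than 3 on the log2 scale and 103 (0.689%) lower by as much, and under total counts 847 (5.66%) and 220 (1.47%). The 6 libraries did not overlap in CPM for 3781 genes higher in SEN (25.3%) and 8692 lower (58.1%). Since CPM are per total count, overlap is judged on that scale here and below, and it was not counted on the TMM scale. Of the TMM calls, 7995 had the same direction and an adjusted p below 0.05 in every alternative of scale, filter, tool, fit and left-out library, the 2-fold minimum apart.

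The shares of calls differed between levels and gene types, with no steady trend over levels. Of the top of 5 equal bins of tested genes by level (62.9 CPM and above) 56.9% were higher and 26.4% lower under TMM, and 35.0% and 50.2% under total counts. The middle bin (9.47 to 25.2 CPM) showed the reverse, with 24.3% higher and 56.6% lower under TMM and 14.2% and 75.8% under total counts. In the lowest bin (0.032 to 1.65 CPM) 42.9% were higher and 17.3% lower under TMM, and 35.5% and 26.6% under total counts. Among 999 non-coding genes tested, 43.5% were higher and 18.0% lower under TMM, compared with 37.2% and 39.9% of 13957 protein-coding genes. Under total counts the shares were 37.2% and 28.6% for non-coding and 23.6% and 58.9% for coding genes. The filter on low counts keeps a gene with enough counts in any 3 libraries, so a gene nearly silent in NC could enter through SEN alone, or the reverse. How far this shaped the shares of the lowest bin and of non-coding genes was not tested.

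**Figure D2:**
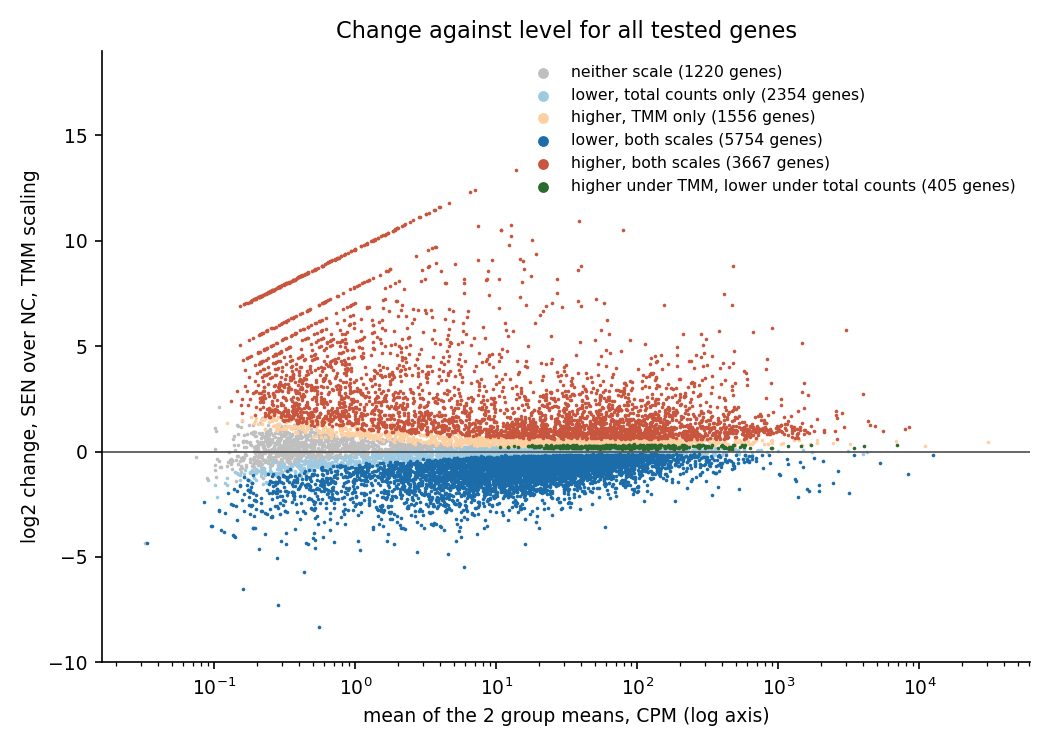
Log2 change under TMM of each tested gene (1 point) against its mean level in CPM on a log axis, coloured by the pair of calls under both scales. Genes called in opposite directions (405, green) lie in a thin band just above 0, and the parallel stripes at the upper left are genes with few or no counts in NC, whose fitted change depends on a prior count.

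The genes with the largest changes are described first, among those called on both scales without overlap, as the rule for naming them required. The rule left out placeholder symbols such as those that start with LOC or RGD, so larger changes may lie among those. Below, a pair such as -4.24 (-4.69) for Pars2, the mitochondrial prolyl-tRNA synthetase, gives the log2 change under TMM first and that under total counts in parentheses. The named genes that rose most were all close to silent in NC. Trim72, which encodes a membrane repair protein of striated muscle, had 0.029, 0.0741 and 0.0478 CPM in NC and 82.9, 75.2 and 72.6 CPM in SEN. Every SEN library lay far above every NC library, and the log2 change was 10.91 ± 0.23 under TMM (SE, adjusted p = 8.22e-14) and 10.46 ± 0.24 under total counts (adjusted p = 3.30e-13). Btk, a tyrosine kinase known from B cells, had 0.029, 0.0247 and 0.0716 CPM in NC and 37.1, 32.2 and 38.3 CPM in SEN and Nptx1, a neuronal pentraxin, 0.232, 0.346 and 0.143 CPM in NC and 74.3, 82.7 and 83 CPM in SEN. Neither overlapped between groups, with log2 changes of 10.05 under TMM and 9.61 under total counts for Btk and 8.81 under TMM and 8.36 under total counts for Nptx1. Dand5, a secreted Nodal antagonist, and Pcdh17, a protocadherin, had log2 changes of 9.80 and 9.35 under TMM and 9.36 and 8.90 under total counts.

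Genes that passed from near silence to expression far outnumbered those that went silent. With at most 3 counts summed over the NC libraries and at least 1 CPM in SEN there were 161 genes, 117 of them protein-coding, against 2 genes in the other direction. Ceacam19, of the carcinoembryonic antigen family, had 0 counts in NC and 23, 26.7 and 32.5 CPM in SEN, at least 1064-fold higher against a floor of 3 counts over the group. Stpg3 had 0 counts in NC and 13.4, 14 and 14.8 CPM in SEN, at least 548-fold higher. Pou3f1, a POU-domain transcription factor, had 2 counts in NC and 2688 in SEN, a CPM ratio of 1496.5 (95% counting interval 414 to 12363.5). Egr4, of the early growth response family, had 3 and 2684 counts, a ratio of 996 (341 to 4833.7). Rab44, a large Rab GTPase, had 2 and 2263 counts (ratio 1259.9, interval 348 to 10409.7) and Lsmem1 3 and 1061 (394, 134 to 1912.6). These intervals and floors hold counting error and no other. In the other direction Ptprb, an endothelial-type receptor phosphatase, had 36, 62 and 32 counts in NC and none in SEN, at least 38.9-fold lower. Lipt1 had 117 counts in NC and 3 in SEN (ratio of NC over SEN 35, interval 11.7 to 172). Gprin1, below 1 CPM in NC and so outside the 2 genes counted above, had 64 and 0 counts, at least 19.2-fold lower.

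Many of the genes that came on sit next to a gene that rose. Of the 161, 148 could be placed among their neighbours in RefSeq's GRCr8 annotation, and 54 of these (36.5%) had an adjacent gene that was called higher on both scales and had at least 10 CPM in SEN. The same was true of 17.2% of 4800 placed genes that had at most 3 counts in NC and stayed below 1 CPM, and of 19.2% of all tested genes. An adjacent gene with at least 10 CPM in SEN, raised or not, was also more frequent, at 69.6% against 53.7% and 62.6%. For 32 of the 148 (21.6%) that neighbour lay upstream on the same strand, against 3.04% and 3.58%. Strand was taken from RefSeq's promoter entries, and a gene or neighbour without an entry counted as having no such neighbour. How many lacked an entry in each set is not given here. Rab44 lies downstream of Cdkn1a, Ceacam19 of Pvr and Lsmem1 of Ifrd1. Cdkn1a had 131, 135 and 132 CPM in NC and 1109, 1018 and 1057 CPM in SEN, Pvr 98.5, 101 and 105 CPM in NC and 692, 665 and 699 CPM in SEN and Ifrd1 98.7, 94.4 and 101 CPM in NC and 476, 441 and 449 CPM in SEN, so all 3 neighbours rose with no overlap. These neighbours were picked after their values were seen, and whether reads of one gene were counted for the next was not tested.

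The falls included genes known from vessels and smooth muscle. Gja5, a connexin of vessels and heart, had 11.4, 12.3 and 11.2 CPM in NC and 0.261, 0.0961 and 0.198 CPM in SEN. The SEN libraries were all below 0.3 CPM and those of NC all above 11, a log2 change of -5.46 ± 0.19 under TMM (SE, adjusted p = 1.04e-11) and -5.91 ± 0.18 under total counts (adjusted p = 5.45e-12). Irag1, a substrate of cGMP-dependent kinase in smooth muscle, had 30.1, 31 and 31.1 CPM in NC and 0.886, 1.28 and 1.13 CPM in SEN, and Myocd, the coactivator that drives smooth muscle genes through serum response factor, 15.4, 14.6 and 16.2 CPM in NC and 0.677, 0.801 and 1.24 CPM in SEN. Both fell without overlap, by log2 changes of -4.36 under TMM and -4.82 under total counts and of -3.63 under TMM and -4.08 under total counts. Ift70b, of the intraflagellar transport machinery, fell by a log2 change of -4.07 (-4.52), the forkhead factor Foxs1 by -3.79 (-4.24), the helix-loop-helix factor Atoh8 by -3.62 (-4.08) and the receptor Cd200r1 by -3.92 (-4.37).

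**Figure D3:**
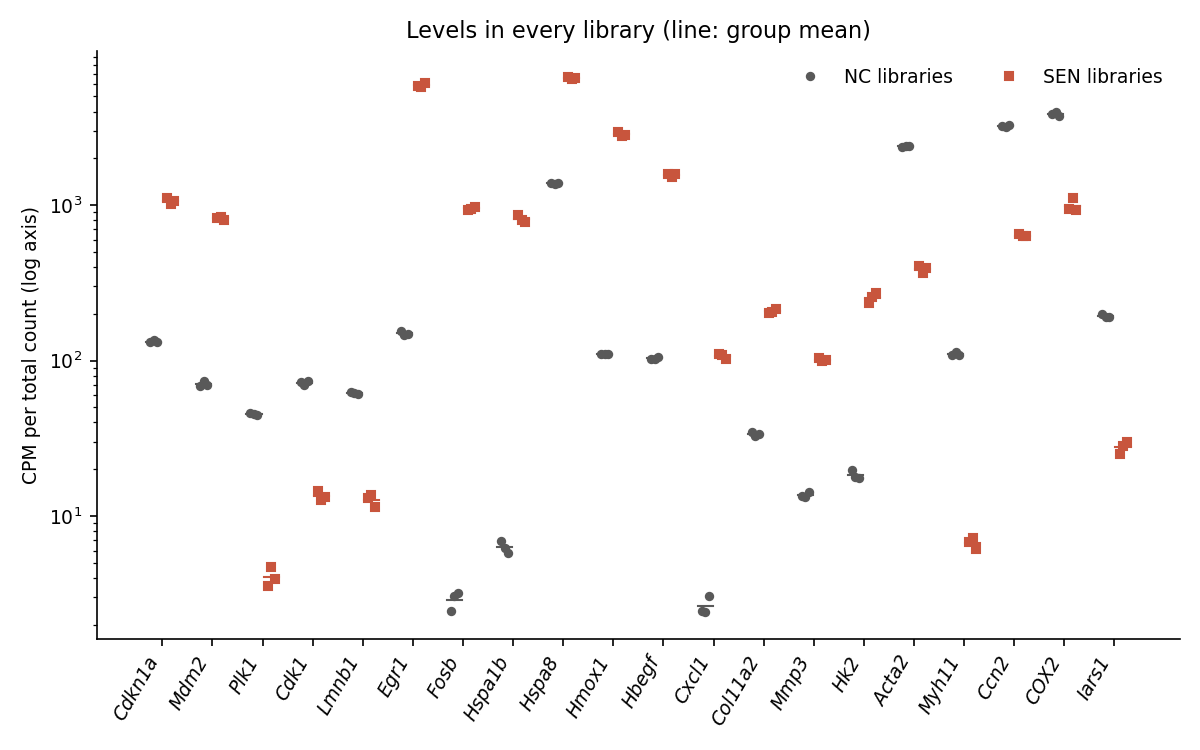
CPM of 20 genes named in the text in each of the 3 NC (grey circles) and 3 SEN libraries (red squares), on a log axis, with group means as lines. For none of the 20 genes do the groups overlap, and the 3 libraries of a group lie close together compared with the distance between groups.

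Targets of p53 were mostly higher and genes of mitosis mostly lower. Of 39 tested targets of p53, the damage-activated transcription factor, 24 were higher and 6 lower under TMM and 21 and 13 under total counts. The median log2 change was 0.86 and 0.41, against -0.01 and -0.46 for all tested genes. Of all tested genes 37.6% were higher and 38.5% lower under TMM, and 24.5% and 56.9% under total counts. The counts of every list below stand beside these shares, and the size given for a list is that of its members that passed the filter on low counts. Mdm2, the ubiquitin ligase that turns p53 over, had 68.7, 74 and 69.6 CPM in NC and 832, 840.2 and 799.5 CPM in SEN. It rose by a log2 change of 3.99 ± 0.06 under TMM (SE, adjusted p = 1.65e-15) and 3.54 ± 0.05 under total counts (adjusted p = 7.70e-15), with every SEN library above every NC library. Plk2, a stress-induced kinase, had 30.5, 29.5 and 31.1 CPM in NC and 570.1, 548 and 564 CPM in SEN, and Btg2, an antiproliferative gene, 55.9, 55.9 and 57.9 CPM in NC and 760.5, 748 and 754 CPM in SEN. Both rose on both scales without overlap, by a log2 change of 4.66 under TMM and 4.21 under total counts and by 4.19 under TMM and 3.74 under total counts. Gadd45b, a damage-response gene, rose by a log2 change of 4.54 (4.08), and Trim32, a ubiquitin ligase gene of the same list, fell by -1.79 (-2.24).

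Of 59 genes of G2 and mitosis, 5 were higher and 47 lower under TMM, and 2 higher and 55 lower under total counts. The median was -0.74 and -1.19. Plk1, the kinase that drives mitotic entry, had 46, 45.6 and 44.4 CPM in NC and 3.57, 4.71 and 3.96 CPM in SEN. Each SEN library was below each NC library by a wide margin, with a log2 change of -3.03 ± 0.09 under TMM (SE, adjusted p = 1.62e-12) and -3.48 ± 0.09 under total counts (adjusted p = 8.17e-13). Ccnb1, the mitotic cyclin, had 47.5, 52.2 and 52.9 CPM in NC and 9.12, 10.2 and 9.22 CPM in SEN and Cdk1, its kinase, 72.9, 69.7 and 73.9 CPM in NC and 14.4, 12.8 and 13.3 CPM in SEN. Neither overlapped, and the log2 changes were -1.97 under TMM and -2.42 under total counts for Ccnb1 and -1.96 under TMM and -2.42 under total counts for Cdk1. Ckap2l, a spindle protein gene, fell by a log2 change of -3.0 (-3.45) and Kif20a, a kinesin of cytokinesis, by -1.47 (-1.93). Against the list's direction, Ube2s, an E2 enzyme of the anaphase-promoting complex, had 126, 122 and 130.5 CPM in NC and 453, 416 and 421 CPM in SEN and Cks2, a small Cdk-binding protein gene, 25.6, 23.2 and 26.8 CPM in NC and 71.9, 64.9 and 63.9 CPM in SEN. Both rose without overlap, by a log2 change of 2.22 under TMM and 1.77 under total counts and by 1.86 under TMM and 1.41 under total counts.

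The promoters of this group are shown because its members share elements through which cell-cycle repressor complexes are known to act. RefSeq (GRCr8) promoters were matched for 11982 of the 14956 tested genes, and the 250 bases before each start were searched on both strands for the cell-cycle homology region, CHR (TTTGAA), and the CCAAT box (CCAAT). Of 50 promoters of the list 22 (44.0%) held a CHR and 38 (76.0%) a CCAAT box, compared with 10.6% and 35.4% of all 11982. Capitals mark these motifs, read on the gene's strand, where ATTGG and TTCAAA are the same motifs on the other strand. Cdk1 (chr20:19265073-19265292, plus strand) and Cdc20 (chr5:137255826-137255895, minus strand), the activator of the anaphase-promoting complex, fell, and Cks2 (chr17:13727523-13727668, minus strand) rose, and all 3 promoters hold both motifs. A match describes letters, not binding, and these genes were picked after their values were seen.
Cdk1: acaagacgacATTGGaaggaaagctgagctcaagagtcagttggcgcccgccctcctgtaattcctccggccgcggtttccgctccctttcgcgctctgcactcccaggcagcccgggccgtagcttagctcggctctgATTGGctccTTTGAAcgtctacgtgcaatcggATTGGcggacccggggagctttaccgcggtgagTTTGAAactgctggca
Cdc20: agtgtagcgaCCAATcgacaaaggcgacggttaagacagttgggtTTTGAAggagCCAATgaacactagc
Cks2: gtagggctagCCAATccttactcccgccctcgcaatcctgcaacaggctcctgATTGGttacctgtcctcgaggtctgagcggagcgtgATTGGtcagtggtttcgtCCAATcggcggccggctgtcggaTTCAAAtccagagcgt
Cdc20 had 52.2, 54.3 and 54.9 CPM in NC and 10.7, 9.71 and 12.1 CPM in SEN, a log2 change of -1.86 under TMM and -2.31 under total counts.

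S phase genes were less uniform. Of 56 genes of replication, 12 were higher and 24 lower under TMM, and 6 higher and 44 lower under total counts, with medians of -0.12 and -0.58. Dnmt1, the maintenance DNA methyltransferase, had 104, 100 and 102 CPM in NC and 38.7, 39.6 and 40.8 CPM in SEN, and Uhrf1, which guides it to new DNA, 54.8, 51.3 and 54 CPM in NC and 18.3, 17.2 and 15.3 CPM in SEN. Both fell on both scales without overlap, by a log2 change of -0.91 under TMM and -1.36 under total counts and by -1.20 under TMM and -1.66 under total counts. The salvage enzyme gene Tk1 fell by a log2 change of -1.03 (-1.49) and the clamp loader gene Rfc1 by -1.18 (-1.63). Pcna, the sliding clamp and also a p53 target, had 80.3, 84.3 and 76.9 CPM in NC and 446, 389 and 401 CPM in SEN. It went the other way in every library, with a log2 change of 2.81 ± 0.07 under TMM (SE, adjusted p = 6.71e-13) and 2.36 ± 0.07 under total counts (adjusted p = 3.37e-12).

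Of 40 genes of the nuclear pore and lamina 12 were higher and 23 lower under TMM, and 9 higher and 30 lower under total counts. Lmnb1, the lamin B1 gene, had 63.2, 62.1 and 60.5 CPM in NC and 13.1, 13.7 and 11.4 CPM in SEN. Its 3 SEN values were all below its 3 NC values, with a log2 change of -1.83 ± 0.08 under TMM (SE, adjusted p = 6.51e-11) and -2.28 ± 0.08 under total counts (adjusted p = 1.08e-11). The pore gene Nup88 fell by a log2 change of -1.02 (-1.47) and the lamina-associated Tmpo by -0.76 (-1.21), whereas Sun2, an inner nuclear membrane protein that links the lamina to the cytoskeleton, rose by 1.10 (0.65). Condensin and cohesin genes were split, 10 higher and 11 lower under TMM, and 6 higher and 14 lower under total counts of 24: Ctcf, the boundary factor, fell by a log2 change of -0.66 (-1.11) and Ncapg2, a condensin II subunit, rose by 1.88 (1.42).

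Immediate early and stress-induced transcription factors, which in other cells answer a stimulus within minutes, were almost all higher. Of 27 factors of the AP-1, EGR, NR4A and ATF families, 26 were higher and 0 lower under TMM, and 24 higher and 2 lower under total counts (without the length trend 25 and 2), and the medians were 3.44 and 2.98, the highest of the 50 lists. Egr1 had 156, 146 and 147 CPM in NC and 5800.3, 5791 and 6109 CPM in SEN. It had the largest gain in CPM of all genes, and its log2 change was 5.75 ± 0.06 under TMM (SE, adjusted p = 7.04e-16) and 5.30 ± 0.06 under total counts (adjusted p = 1.63e-15). Fosb had 2.46, 3.04 and 3.2 CPM in NC and 934, 947 and 976 CPM in SEN, Fos 17.3, 15.1 and 15.1 CPM in NC and 531, 539 and 572 CPM in SEN and Atf3, a stress-induced repressor, 18.3, 18.7 and 20 CPM in NC and 776, 712 and 715 CPM in SEN. All rose without overlap, by a log2 change of 8.80 under TMM and 8.35 under total counts (Fosb), 5.57 under TMM and 5.11 under total counts (Fos) and 5.72 under TMM and 5.27 under total counts (Atf3).

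Part of this family carries a CRE (TGACGTCA), the site of CREB and ATF factors, or an SRF CArG box, the site of serum response factor, within 250 bases of the start. Among 20 promoters of the list 3 (15%) held a CRE, against 2.78% of all 11982, and 3 (15%) a CArG box, against 1.22%. Maff, a small Maf factor (chr7:112792726-112792753, plus strand), and Ier2 (chr19:40399297-40399324, plus strand) show the CRE, whose first base is at -51 and -66, and Egr2 (chr20:21054505-21054534, minus strand) shows the CArG box at -83, in capitals.
Maff: gctggggcggTGACGTCActgcatgact
Ier2: ggcgtttcagTGACGTCActcttactct
Egr2: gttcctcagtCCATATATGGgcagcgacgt
Maff had 16.6, 15.6 and 18.1 CPM in NC and 191, 182 and 183 CPM in SEN, Ier2 66.3, 69.4 and 72.8 CPM in NC and 477, 423 and 408 CPM in SEN and Egr2 4.72, 5.19 and 4.82 CPM in NC and 48.4, 47.8 and 49.7 CPM in SEN. All rose on both scales, with log2 changes of 3.92 (3.47), of 3.10 (2.65) and of 3.76 (3.31). The 3 genes were chosen for display after their values were seen.

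Several related families were mostly higher as well. Of 15 Kruppel-like factors 11 were higher and 1 lower under TMM, and 10 higher and 2 lower under total counts (without the length trend 11 and 3). Klf4 had 30.3, 26.9 and 28.2 CPM in NC and 486, 497 and 494 CPM in SEN and Klf6 157, 154 and 160.0 CPM in NC and 632, 682 and 688 CPM in SEN. Both rose without overlap, by a log2 change of 4.57 under TMM and 4.11 under total counts and by 2.54 under TMM and 2.09 under total counts, and Klf15 fell by -2.26 (-2.71). Of 20 genes that damp MAP kinases, 16 were higher and 4 lower under TMM, and 14 higher and 5 lower under total counts, with medians of 2.02 and 1.56. Dusp1, a nuclear MAP kinase phosphatase, had 129, 125 and 131 CPM in NC and 830.0, 781 and 803 CPM in SEN, Dusp5, specific for ERK, 8.46, 7.14 and 6.78 CPM in NC and 147, 142 and 151 CPM in SEN and Errfi1, an inhibitor of the EGF receptor, 47.7, 41 and 43.8 CPM in NC and 549.8, 540.0 and 542 CPM in SEN. No library of one group reached the other, and the log2 changes were 3.10 (2.65), 4.76 (4.30) and 4.08 (3.62). Dusp14 fell by a log2 change of -0.79 (-1.25). Of 20 clock genes 16 were higher and 2 lower under TMM, and 12 higher and 5 lower under total counts, with Nr1d2 and Rora, nuclear receptors of the clock's second loop, at 2.61 (2.16) and 2.73 (2.28), and Bhlhe41, a clock repressor, lower by a log2 change of -1.42 (-1.88).

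Genes of the general transcription machinery and of zinc finger proteins were mostly lower. Of 43 genes of Mediator and RNA polymerase II, 10 were higher and 26 lower under TMM, and 2 higher and 34 lower under total counts (without the length trend 6 and 32). Polr2b, the second largest polymerase subunit, had 89.5, 84.9 and 89.5 CPM in NC and 18.8, 19.2 and 19.9 CPM in SEN. It fell by a log2 change of -1.73 ± 0.06 under TMM (SE, adjusted p = 5.70e-12) and -2.19 ± 0.06 under total counts (adjusted p = 1.40e-12) with no overlap. Med17, of the Mediator head, fell by a log2 change of -2.11 (-2.56), while Med13, of the kinase module, rose by 2.74 (2.29). Of 274 genes named Zfp, 46 were higher and 187 lower under TMM, and 30 higher and 226 lower under total counts, and the medians were -0.84 and -1.29. Zfp386 had 73.5, 71.8 and 66.7 CPM in NC and 7.97, 7.79 and 7.38 CPM in SEN and Zfp827 67.2, 64.5 and 66 CPM in NC and 11.3, 10.2 and 11.5 CPM in SEN. Both fell without overlap, by a log2 change of -2.74 under TMM and -3.19 under total counts and by -2.12 under TMM and -2.58 under total counts. Zfp36, which encodes the RNA-decay factor tristetraprolin and is no DNA-binding repressor, rose by a log2 change of 3.43 (2.98). Of 86 chromatin modifiers, 40 were higher and 32 lower under TMM, and 24 higher and 47 lower under total counts. The shares were 46.5% and 37.2%, and 27.9% and 54.7%, against 37.6% and 38.5%, and 24.5% and 56.9%, of all tested genes. Without the length trend, and the mean level taken out with it, 31 were higher and 41 lower. The larger side thus turned under total counts and under that fit. Brd2, an acetyl-histone reader, had 153, 159 and 158 CPM in NC and 1016, 1027 and 1064 CPM in SEN, and Kat7, a histone acetyltransferase, 69.8, 70.5 and 71.1 CPM in NC and 22, 20.7 and 23 CPM in SEN. Brd2 rose by a log2 change of 3.18 under TMM and 2.72 under total counts and Kat7 fell by -1.23 under TMM and -1.68 under total counts, both without overlap.

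Most cytosolic chaperone genes were higher, among them the inducible Hsp70 genes. Of 45 heat shock and folding genes 35 were higher and 7 lower under TMM, and 27 higher and 13 lower under total counts, with medians of 0.77 and 0.32. The inducible Hsp70 gene Hspa1a had 10.7, 10.1 and 10.2 CPM in NC and 980.3, 897 and 927 CPM in SEN and its near-identical copy Hspa1b 6.95, 6.25 and 5.78 CPM in NC and 869, 806 and 777 CPM in SEN, among which reads may have been split. Each was far above NC in every SEN library, with log2 changes of 6.95 (6.50) and 7.47 (7.02). Hspa8, the constitutive Hsp70, had 1396, 1358 and 1383 CPM in NC and 6628, 6488 and 6602 CPM in SEN. It had the second largest gain in CPM of all genes, with a log2 change of 2.71 ± 0.05 under TMM (SE, adjusted p = 1.39e-14) and 2.25 ± 0.04 under total counts (adjusted p = 7.49e-14). Hspa2 rose by a log2 change of 4.95 (4.49). Cct6a, a subunit of the ring chaperonin for actin and tubulin, had 205, 204 and 207 CPM in NC and 110.4, 103 and 106 CPM in SEN, and fell by a log2 change of -0.49 under TMM and -0.95 under total counts.

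The heat shock genes are shown with their promoters because heat shock factor binds inverted GAA units, here searched as the pair GAANNTTC. Of 39 promoters of the list 11 (28.2%) held such a pair, against 4.89% of all 11982. Hsph1, an Hsp70 nucleotide exchange factor (chr12:10427327-10427354, plus strand), Dnajb1, an Hsp40 (chr19:41431142-41431162, minus strand), Bag3, a cochaperone of selective autophagy (chr1:192533318-192533345, plus strand), and Hspb1, a small heat shock protein (chr12:26432393-26432440, minus strand), have pairs whose first base is at -31, -11, -132 and -129, in capitals.
Hsph1: gcagattctgGAAAGTTCtcctcagtag
Dnajb1: gggaggggcgGAAGGTTCtgg
Bag3: gatgggaccaGAAGTTTCtagccggcca
Hspb1: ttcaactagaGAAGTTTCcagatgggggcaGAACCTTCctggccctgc
Hsph1 had 109, 111 and 113 CPM in NC and 1063, 1055 and 1095 CPM in SEN, and Bag3 66.8, 65.5 and 66.5 CPM in NC and 547, 518 and 545 CPM in SEN. Dnajb1 had 58.9, 61.6 and 58.2 CPM in NC and 434, 409 and 416 CPM in SEN and Hspb1 99.3, 98.7 and 105 CPM in NC and 278, 240.0 and 249 CPM in SEN. All 4 rose without overlap, by log2 changes of 3.72 (3.27) (Hsph1), 3.47 (3.02) (Bag3), 3.27 (2.82) (Dnajb1) and 1.79 (1.34) (Hspb1) on the 2 scales, and all 4 were chosen for display after their values were seen.

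Other branches of protein turnover differed from one another. Of 59 lysosomal genes 49 were higher and 7 lower under TMM, and 37 higher and 12 lower under total counts. Ctsd, the aspartic protease cathepsin D, had 428, 428 and 439.5 CPM in NC and 1041, 986 and 998 CPM in SEN and Gla, the alpha-galactosidase, 25.7, 25.7 and 24.9 CPM in NC and 99.3, 102 and 103 CPM in SEN. In both the SEN libraries were all higher, by a log2 change of 1.68 under TMM and 1.22 under total counts and by 2.44 under TMM and 1.99 under total counts, and the cathepsin gene Ctsz fell by -1.78 (-2.23). Of 43 autophagy genes 24 were higher and 14 lower under TMM, and 15 higher and 22 lower under total counts. The cargo receptor Sqstm1 had 412, 403 and 414 CPM in NC and 1749.5, 1622 and 1679 CPM in SEN and Gabarapl1, of the ATG8 family, 75, 70.8 and 74.4 CPM in NC and 385, 360.1 and 349.7 CPM in SEN. Both were higher in each SEN library, by a log2 change of 2.49 under TMM and 2.04 under total counts and by 2.77 under TMM and 2.31 under total counts. Pik3r4, the scaffold of the lipid kinase that starts autophagosomes, had 26.1, 26.6 and 25 CPM in NC and 2.4, 2.47 and 2.8 CPM in SEN, and fell by a log2 change of -2.89 under TMM and -3.34 under total counts. The polyubiquitin gene Ubb rose by a log2 change of 2.66 (2.21), and of 32 genes of ubiquitin, E1 and E2 enzymes 16 were higher and 7 lower under TMM, and 10 higher and 19 lower under total counts. With the length trend taken out 12 were higher and 15 lower. Of 46 proteasome genes 10 were higher and 23 lower under TMM, and 2 higher and 37 lower under total counts. After removal of the length trend 4 were higher and 39 lower. Psmb6, of the proteolytic core, had 86, 79.8 and 82.3 CPM in NC and 29.2, 26.9 and 26 CPM in SEN, and fell by a log2 change of -1.14 under TMM and -1.59 under total counts.

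Nearly all genes for cytosolic ribosomal proteins rose, while those that build ribosomes, charge tRNAs or serve mitochondrial ribosomes were mostly lower. Of 81 ribosomal protein genes 80 were higher and 0 lower under TMM, and 78 higher and 0 lower under total counts (without the length trend 77 and 1). The medians were 1.03 and 0.58. These transcripts are short (median 711 nt), and with the length trend and mean level taken out the median was 0.47. Rplp0, of the ribosomal stalk, had 2210.2, 2202 and 2234 CPM in NC and 3815, 3484 and 3508 CPM in SEN and Rpl10 969, 961 and 1000.1 CPM in NC and 1708, 1551 and 1500.3 CPM in SEN. SEN 1 was the highest library for both, and without it the log2 changes under TMM were 1.10 for Rplp0 and 1.08 for Rpl10, against 1.15 for each with it. The elongation factor gene Eef2 had 3612, 3561 and 3592 CPM in NC and 6164, 5935 and 6045 CPM in SEN, and rose by a log2 change of 1.21 under TMM and 0.75 under total counts. Of 68 translation factors 36 were higher and 17 lower under TMM, and 19 higher and 35 lower under total counts, a larger side that turned with the scale, with Eif4a2, an initiation helicase, higher by a log2 change of 1.96 (1.51) and Eif2b3, of the eIF2 exchange factor, lower by -1.11 (-1.56). With the length trend taken out 30 were higher and 30 lower of these factors.

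Of 22 genes of cytosolic tRNA charging 3 were higher and 17 lower under TMM, and 0 higher and 21 lower under total counts, and the medians, -0.86 and -1.32, were the lowest of the 50 lists. Iars1, for isoleucine, had 201, 192 and 191 CPM in NC and 25.2, 28 and 30.1 CPM in SEN. No SEN library came near NC, and the log2 change was -2.36 ± 0.10 under TMM (SE, adjusted p = 5.29e-11) and -2.81 ± 0.10 under total counts (adjusted p = 2.43e-11). Aars1, for alanine, and Gars1, for glycine, fell by a log2 change of -1.42 (-1.87) and -1.41 (-1.86). Qars1, for glutamine, was higher under TMM by 0.40 and had -0.05 under total counts. Of 75 ribosome biogenesis genes 25 were higher and 43 lower under TMM, and 8 higher and 54 lower under total counts. Pwp2, of the small-subunit processome, had 49.8, 49.4 and 50.6 CPM in NC and 9.92, 12 and 10.2 CPM in SEN, and Gnl3, nucleostemin, 86.3, 86 and 84 CPM in NC and 229.7, 226 and 223 CPM in SEN. They went opposite ways, Pwp2 by a log2 change of -1.77 under TMM and -2.22 under total counts and Gnl3 by 1.86 under TMM and 1.41 under total counts, neither with overlap. Of 74 mitochondrial ribosomal protein genes 4 were higher and 53 lower under TMM, and 1 higher and 69 lower under total counts (without the length trend 2 and 70), with Mrpl19 at -1.75 (-2.21) and Mrps6 at 1.61 (1.15). Splicing factors of the SR and hnRNP kind were mostly higher under TMM and evenly split under total counts, 29 higher and 7 lower under TMM, and 19 higher and 19 lower under total counts of 45. With the length trend taken out 26 were higher and 12 lower. Srsf3, a small SR protein, had 250.4, 256 and 260.5 CPM in NC and 732, 799 and 720.1 CPM in SEN and rose by a log2 change of 2.01 under TMM and 1.55 under total counts, and the kinase gene Clk2 fell by -1.08 (-1.53).

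In the secretory path folding genes of the endoplasmic reticulum were mostly higher under TMM. The balance of the transport machinery shifted with the scale, as that of all tested genes did. Of 37 folding genes 26 were higher and 6 lower under TMM, and 16 higher and 12 lower under total counts. Dnajb9, a target of the XBP1 branch, had 29, 31.9 and 31.1 CPM in NC and 413, 484 and 406 CPM in SEN, and Hspa5, the chaperone BiP, 1368, 1376 and 1380.1 CPM in NC and 3888, 3591 and 3760.4 CPM in SEN. Both rose in every library, by a log2 change of 4.28 under TMM and 3.82 under total counts and by 1.90 under TMM and 1.45 under total counts, and the sensor kinase Ern1 rose by 3.40 (2.95). Edem2, of the degradation route, fell by a log2 change of -1.60 (-2.05). Of 33 genes of the translocon and of glycan transfer 15 were higher and 7 lower under TMM, and 0 higher and 22 lower under total counts, so that no member was higher on both scales. With the length trend taken out 9 were higher and 17 lower. Rpn2, of the glycan transferase, had 676, 665 and 674 CPM in NC and 687, 647 and 655 CPM in SEN. Its groups overlapped, and the log2 changes were 0.43 under TMM and -0.02 under total counts. Tram2, a translocon partner used for collagen, fell by a log2 change of -1.93 (-2.38). Of 42 coat genes 15 were higher and 13 lower under TMM, and 5 higher and 33 lower under total counts, and of 53 Rab genes 21 were higher and 18 lower under TMM, and 8 higher and 33 lower under total counts (without the length trend 14 and 25, and 19 and 19 without SEN 1). Of all tested genes 37.6% were higher and 38.5% lower under TMM, and 24.5% and 56.9% under total counts. The Rab shares were near these under TMM (39.6% and 34.0%), as were the coat shares (35.7% and 31.0%). Under total counts they were 15.1% and 62.3% for Rab and 11.9% and 78.6% for coat genes. Sec24a, a cargo adaptor of COPII, rose by a log2 change of 1.33 (0.87) and Preb, an activator of its GTPase, fell by -1.24 (-1.69). Without the length trend 11 were higher and 26 lower among coat genes. Rab7a, of late endosomes, rose by a log2 change of 1.45 (1.0) and Rab30, of the Golgi, fell by -1.29 (-1.74).

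Most tested chemokines were higher on both scales, and most EGF family genes under TMM. Of 14 tested chemokines 11 were higher and 1 lower under TMM, and 10 higher and 1 lower under total counts (without the length trend 11 and 2), with medians of 3.15 and 2.70. The other 14 chemokines of the table did not pass the filter on low counts. Genes as low in NC as Cxcl10 (5, 17 and 8 counts) could pass that filter through SEN alone. Cxcl1, a neutrophil attractant, had 2.46, 2.42 and 3.08 CPM in NC and 109.8, 108 and 103 CPM in SEN, Cxcl10, an interferon-inducible chemokine, 0.145, 0.42 and 0.191 CPM in NC and 75.4, 78.7 and 71 CPM in SEN and Ccl2, a monocyte attractant, 2.61, 2.84 and 1.77 CPM in NC and 28.4, 30.7 and 29.3 CPM in SEN. All 3 rose without overlap, by a log2 change of 5.78 (5.33), 8.63 (8.17) and 4.07 (3.62). Cxcl12 had 78.8, 79.9 and 83.9 CPM in NC and 27.2, 30.1 and 25.6 CPM in SEN, and fell by a log2 change of -1.10 under TMM and -1.55 under total counts. Of 14 genes of the EGF family 8 were higher and 3 lower under TMM, and 7 higher and 4 lower under total counts. Hbegf, a membrane-tethered ligand, had 102, 102 and 106 CPM in NC and 1585, 1527 and 1585 CPM in SEN and Areg, amphiregulin, 4.87, 5.78 and 5.9 CPM in NC and 125, 102 and 114 CPM in SEN. Both rose, by a log2 change of 4.37 under TMM and 3.92 under total counts and by 4.82 under TMM and 4.36 under total counts, as did Adam17, the protease that sheds them, by 1.44 (0.99), and the coreceptor Erbb2 fell by -1.43 (-1.88).

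Of 33 interleukin, receptor and SOCS genes 22 were higher and 7 lower under TMM, and 19 higher and 11 lower under total counts. Lif, of the interleukin-6 family, had 8.4, 8.7 and 7.16 CPM in NC and 58.2, 56 and 63.2 CPM in SEN and Socs3, the feedback inhibitor of its receptor, 21.7, 22.7 and 21.2 CPM in NC and 144, 138 and 148 CPM in SEN. Neither overlapped between groups, with log2 changes of 3.32 under TMM and 2.87 under total counts for Lif and 3.16 under TMM and 2.71 under total counts for Socs3. Il11 rose by a log2 change of 3.56 (3.11), while the receptor antagonist Il1rn fell by -0.87 (-1.32). Of 35 genes of the TGF-beta superfamily 20 were higher and 12 lower under TMM, and 15 higher and 13 lower under total counts. Gdf15, a stress-induced hormone, had 5.5, 5.63 and 7.02 CPM in NC and 115, 99.6 and 96.8 CPM in SEN, Bmp2 6.23, 4.99 and 7.28 CPM in NC and 58, 51.9 and 58.1 CPM in SEN and Tgfb3 578, 572 and 573 CPM in NC and 102, 100.1 and 102 CPM in SEN. The groups were apart for each, with Gdf15 and Bmp2 higher by a log2 change of 4.55 (4.09) and 3.64 (3.18) and Tgfb3 lower by -2.05 (-2.50). Of 18 genes of the IGF system 13 were higher and 4 lower under TMM, and 10 higher and 6 lower under total counts. The binding protein gene Igfbp3 had 89, 94 and 88.4 CPM in NC and 240.4, 236 and 237 CPM in SEN and the receptor gene Igf1r 197, 186 and 193 CPM in NC and 63, 70 and 71.8 CPM in SEN. Igfbp3 rose by a log2 change of 1.85 under TMM and 1.39 under total counts and Igf1r fell by -1.04 under TMM and -1.49 under total counts, with no overlap.

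Cartilage-type matrix genes were higher, and the share called lower was somewhat larger among the enzymes that build their sugar chains than among all tested genes. All 10 markers of cartilage-type disc matrix were called higher under TMM and 9 under total counts, their sum going from 5967 to 6224 CPM in NC to 9193 to 9234 in SEN. Of 37 collagen genes 23 were higher and 3 lower under TMM, and 16 higher and 13 lower under total counts. Without the length trend 23 were higher and 11 lower. Col11a2 had 34.6, 32.6 and 33.5 CPM in NC and 203, 205 and 214 CPM in SEN, Col9a1 566, 547 and 552 CPM in NC and 1024, 1037 and 1045 CPM in SEN and Col4a6, of basement membranes, 4.87, 4.47 and 5.3 CPM in NC and 32.9, 39.2 and 39.9 CPM in SEN. All rose without overlap, by a log2 change of 3.08 (2.63), 1.35 (0.90) and 3.38 (2.93). Col4a3 had 4.03, 3.38 and 3.51 CPM in NC and 0.0521, 0.224 and 0.113 CPM in SEN and fell by a log2 change of -4.39 under TMM and -4.83 under total counts. Of 37 core and link protein genes 28 were higher and 2 lower under TMM, and 21 higher and 7 lower under total counts (without the length trend 27 and 5). Fmod, fibromodulin, had 227, 214 and 216 CPM in NC and 624, 618 and 638 CPM in SEN and Comp, cartilage oligomeric matrix protein, 7.79, 8.74 and 9.98 CPM in NC and 62.8, 57.8 and 59.9 CPM in SEN. Both rose in all 3 SEN libraries, by a log2 change of 1.97 under TMM and 1.52 under total counts and by 3.22 under TMM and 2.76 under total counts.

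Of 50 genes of glycosaminoglycan synthesis 18 were higher and 27 lower under TMM, and 11 higher and 33 lower under total counts. The shares were 36.0% and 54.0%, and 22.0% and 66.0%, against 37.6% and 38.5%, and 24.5% and 56.9%, of all tested genes. The medians were -0.22 and -0.67, against -0.01 and -0.46. Extl3, of heparan sulfate initiation, had 189.9, 183 and 188 CPM in NC and 43.3, 46.8 and 48.7 CPM in SEN and Chpf2, of chondroitin polymerization, 129.7, 127 and 125 CPM in NC and 30.4, 29.9 and 32.2 CPM in SEN. Both fell without overlap, by a log2 change of -1.56 under TMM and -2.02 under total counts and by -1.59 under TMM and -2.05 under total counts. Has3, a hyaluronan synthase, had 0.203, 0.173 and 0.382 CPM in NC and 7.58, 9.2 and 9.61 CPM in SEN, and rose by a log2 change of 5.53 under TMM and 5.08 under total counts. Of 40 MMP, ADAMTS and TIMP genes 22 were higher and 11 lower under TMM, and 16 higher and 16 lower under total counts. Mmp3, stromelysin, had 13.4, 13.3 and 14.2 CPM in NC and 104, 98.7 and 101 CPM in SEN, Mmp13, a collagenase, 10, 9.46 and 9.94 CPM in NC and 37.2, 45.6 and 39.6 CPM in SEN and Timp3, an inhibitor of ADAMTS and MMP enzymes, 61.8, 61.9 and 54.5 CPM in NC and 175, 189.9 and 193 CPM in SEN. All 3 rose without overlap, by a log2 change of 3.35 (2.89), 2.51 (2.06) and 2.10 (1.65). Adamts1, which cleaves aggrecan and versican, had 880.5, 867 and 870.1 CPM in NC and 175, 189.8 and 195 CPM in SEN, and fell by a log2 change of -1.77 under TMM and -2.23 under total counts. Of 32 integrin and laminin genes 13 were higher and 8 lower under TMM, and 11 higher and 16 lower under total counts, with Itga7, a laminin receptor chain, at 4.67 (4.22) and Itga8 at -1.97 (-2.42).

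Contractile and actin cytoskeleton genes were mostly lower. Of 47 targets of serum response factor and MRTF, 6 were higher and 36 lower under TMM, and 0 higher and 44 lower under total counts (without the length trend 2 and 40), with medians of -0.58 and -1.03. Acta2, smooth muscle actin, had 2381, 2395 and 2386 CPM in NC and 406, 365 and 396 CPM in SEN. Each SEN library was below each NC library, with a log2 change of -2.16 ± 0.06 under TMM (SE, adjusted p = 9.81e-13) and -2.62 ± 0.06 under total counts (adjusted p = 1.86e-13). Actb had 5305, 5229 and 5391 CPM in NC and 1071, 999.9 and 938 CPM in SEN, Ccn2, a matricellular target of YAP and SRF, 3222, 3204 and 3259 CPM in NC and 652, 630.0 and 629.6 CPM in SEN and Myh11, smooth muscle myosin, 109, 113 and 109 CPM in NC and 6.82, 7.18 and 6.11 CPM in SEN. All fell without overlap, by a log2 change of -1.95 (-2.40), -1.89 (-2.34) and -3.59 (-4.04). Zyx, of focal adhesions, was higher under TMM by 0.36 and had -0.09 under total counts. Of the 9 smooth muscle markers, most of them also in that list, 8 fell and 1, Des, was higher under TMM alone, and their sum went from 4984 to 5026 CPM in NC to 1561 to 1748 in SEN. In bulk RNA fewer cells of a type and less RNA per cell cannot be told apart, and the part of such cells in these falls was not tested.

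The CArG box that Egr2 carries is also present in promoters of genes that fell. Of 38 promoters of the contractile list 5 (13.2%) held it, against 1.22% of all 11982. Cnn2, a calponin (chr7:10370364-10370393, minus strand), is shown for comparison with Egr2, with the box at -71 in capitals.
Cnn2: cgcttccacgCCTTATAAGGgcatttgccc
Cnn2 had 410.4, 409.7 and 426 CPM in NC and 151, 145 and 140.1 CPM in SEN. It fell by a log2 change of -1.06 under TMM and -1.51 under total counts, whereas Egr2 rose by 3.76 under TMM and 3.31 under total counts, and it was chosen for display after its values were seen.

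Among microtubule genes, kinesins and genes of ciliary transport were mostly lower. Of 14 tested tubulins (19 had a row of counts) 8 were higher and 4 lower under TMM, and 6 higher and 7 lower under total counts. Tubb2a had 71.5, 69.4 and 75.1 CPM in NC and 231, 227 and 229 CPM in SEN and rose by a log2 change of 2.12 under TMM and 1.67 under total counts, and Tubd1, a centriolar delta-tubulin, fell by -1.90 (-2.36). Of 36 kinesins 6 were higher and 22 lower under TMM, and 5 higher and 26 lower under total counts. Kif22, which moves chromosome arms, had 42.1, 39.8 and 43.1 CPM in NC and 4.92, 4.04 and 5.34 CPM in SEN and fell by a log2 change of -2.67 under TMM and -3.12 under total counts. Of 34 genes of ciliary transport 5 were higher and 19 lower under TMM, and 1 higher and 31 lower under total counts (without the length trend 2 and 25), with the transport gene Ift172 lower by a log2 change of -1.37 (-1.82) and Bbs1, of the BBSome, by -1.71 (-2.16). Of 9 tested gap junction genes (20 had a row of counts) 3 were higher and 5 lower under TMM, and 2 higher and 7 lower under total counts. Of 48 tested potassium channel genes (of 84) 22 were higher and 11 lower under TMM, and 15 higher and 16 lower under total counts. Of 205 tested solute carriers (of 300) 83 were higher and 80 lower under TMM, and 52 higher and 105 lower under total counts (without the length trend 74 and 92, and 80 and 80 without SEN 1). Members as low in NC as Slc16a10 could pass the filter through SEN alone. The carrier shares, 40.5% higher and 39.0% lower under TMM and 25.4% and 51.2% under total counts, were near those of all tested genes. Those were 37.6% and 38.5%, and 24.5% and 56.9%. Among the carriers the lactate transporter Slc16a1 had 62.2, 65.1 and 64 CPM in NC and 417, 476 and 427 CPM in SEN and Slc16a10, which carries aromatic amino acids, 0.058, 0.0988 and 0.143 CPM in NC and 29.4, 33.4 and 31.2 CPM in SEN. Both rose without overlap, by a log2 change of 3.24 under TMM and 2.79 under total counts and by 8.66 under TMM and 8.21 under total counts. Kcnj2, an inward rectifier, fell by a log2 change of -1.71 (-2.16), and Kcnk5, a background channel, rose by 2.60 (2.14).

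In energy metabolism glycolysis genes were mostly higher and genes of mitochondrial DNA lower. Of 23 glycolysis genes 17 were higher and 3 lower under TMM, and 12 higher and 7 lower under total counts. Hk2, the inducible hexokinase, had 19.8, 17.8 and 17.6 CPM in NC and 234, 256 and 272 CPM in SEN, Slc2a1, the glucose transporter, 64.8, 67.1 and 64.1 CPM in NC and 239, 232 and 238 CPM in SEN and Pfkfb3, which makes the activator of phosphofructokinase, 38.8, 37.6 and 37.8 CPM in NC and 111, 112 and 117 CPM in SEN. All rose without overlap, by a log2 change of 4.24 (3.79), 2.31 (1.86) and 2.03 (1.58). Slc16a3, a lactate exporter, fell by a log2 change of -1.75 (-2.20). Of 27 genes of the citric acid cycle and pyruvate dehydrogenase 9 were higher and 13 lower under TMM, and 1 higher and 21 lower under total counts. Ogdh, of oxoglutarate dehydrogenase, had 149.8, 151 and 149.5 CPM in NC and 27.9, 31.9 and 36.3 CPM in SEN and Pdk4, which blocks pyruvate dehydrogenase, 1.13, 0.766 and 1.05 CPM in NC and 16.1, 15.8 and 18.6 CPM in SEN. Ogdh fell by a log2 change of -1.78 under TMM and -2.23 under total counts and Pdk4 rose by 4.55 under TMM and 4.10 under total counts.

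All 13 protein genes of mitochondrial DNA were lower under total counts, and under TMM 10 were lower and 1, ATP8, higher. Without the length trend all 13 were lower. COX2 had 3831, 3967 and 3759.7 CPM in NC and 944, 1105 and 931 CPM in SEN and ND4 3174, 3104 and 3078 CPM in NC and 724, 832 and 728 CPM in SEN. Each fell without overlap, by a log2 change of -1.5 under TMM and -1.96 under total counts and by -1.58 under TMM and -2.03 under total counts. COX1, the most abundant of them, had 15399, 15149 and 15039 CPM in NC and 9729.8, 9928 and 9845 CPM in SEN. It fell by a log2 change of -0.18 ± 0.06 under TMM (SE, adjusted p = 0.0112) and -0.63 ± 0.06 under total counts (adjusted p = 1.96e-07). With DESeq2's size factors in edgeR its log2 change was -0.12 (adjusted p = 0.0715). Of 85 nuclear genes of oxidative phosphorylation 18 were higher and 27 lower under TMM, and 5 higher and 66 lower under total counts. These transcripts are short (median 752 nt). With the length trend and mean level taken out 6 were higher and 72 lower, the median going from -0.03 to -0.63, and without SEN 1 under TMM 15 were higher and 31 lower. Sdha, the flavoprotein of complex II, had 111, 105 and 106 CPM in NC and 36.2, 32.9 and 34.9 CPM in SEN and Ndufs1, of complex I, 78.7, 80.8 and 78 CPM in NC and 26.9, 24.6 and 25.8 CPM in SEN. Both fell without overlap, by a log2 change of -1.18 under TMM and -1.63 under total counts and by -1.17 under TMM and -1.62 under total counts.

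Antioxidant genes were mostly higher under TMM. Of 45 genes of glutathione, thioredoxin and NRF2 31 were higher and 7 lower under TMM, and 22 higher and 16 lower under total counts. Without the length trend 24 were higher and 16 lower. Hmox1, heme oxygenase, had 109.9, 110.1 and 111 CPM in NC and 2962, 2772 and 2830.5 CPM in SEN. Its log2 change was 5.15 ± 0.07 under TMM (SE, adjusted p = 1.35e-15) and 4.69 ± 0.06 under total counts (adjusted p = 3.41e-15), and SEN libraries were all above NC. Txnrd1, thioredoxin reductase, had 129, 124 and 122 CPM in NC and 853, 849 and 893 CPM in SEN and Srxn1, sulfiredoxin, 22.7, 22.7 and 25.8 CPM in NC and 310.4, 298 and 305 CPM in SEN. Both rose without overlap, by a log2 change of 3.24 under TMM and 2.79 under total counts and by 4.13 under TMM and 3.68 under total counts, while Prdx3, the mitochondrial peroxiredoxin, fell by -1.16 (-1.61). Of 26 cholesterol genes 9 were higher and 11 lower under TMM, and 6 higher and 18 lower under total counts. The shares were 34.6% and 42.3%, and 23.1% and 69.2%, against 37.6% and 38.5%, and 24.5% and 56.9%, of all tested genes. Insig1, which holds back sterol synthesis, had 219, 226 and 224 CPM in NC and 1559.9, 1572 and 1558 CPM in SEN and Fdft1, squalene synthase, 133, 131 and 129.7 CPM in NC and 34, 30.8 and 32.3 CPM in SEN. Insig1 rose by a log2 change of 3.26 under TMM and 2.81 under total counts and Fdft1 fell by -1.57 under TMM and -2.02 under total counts.

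**Figure D4:**
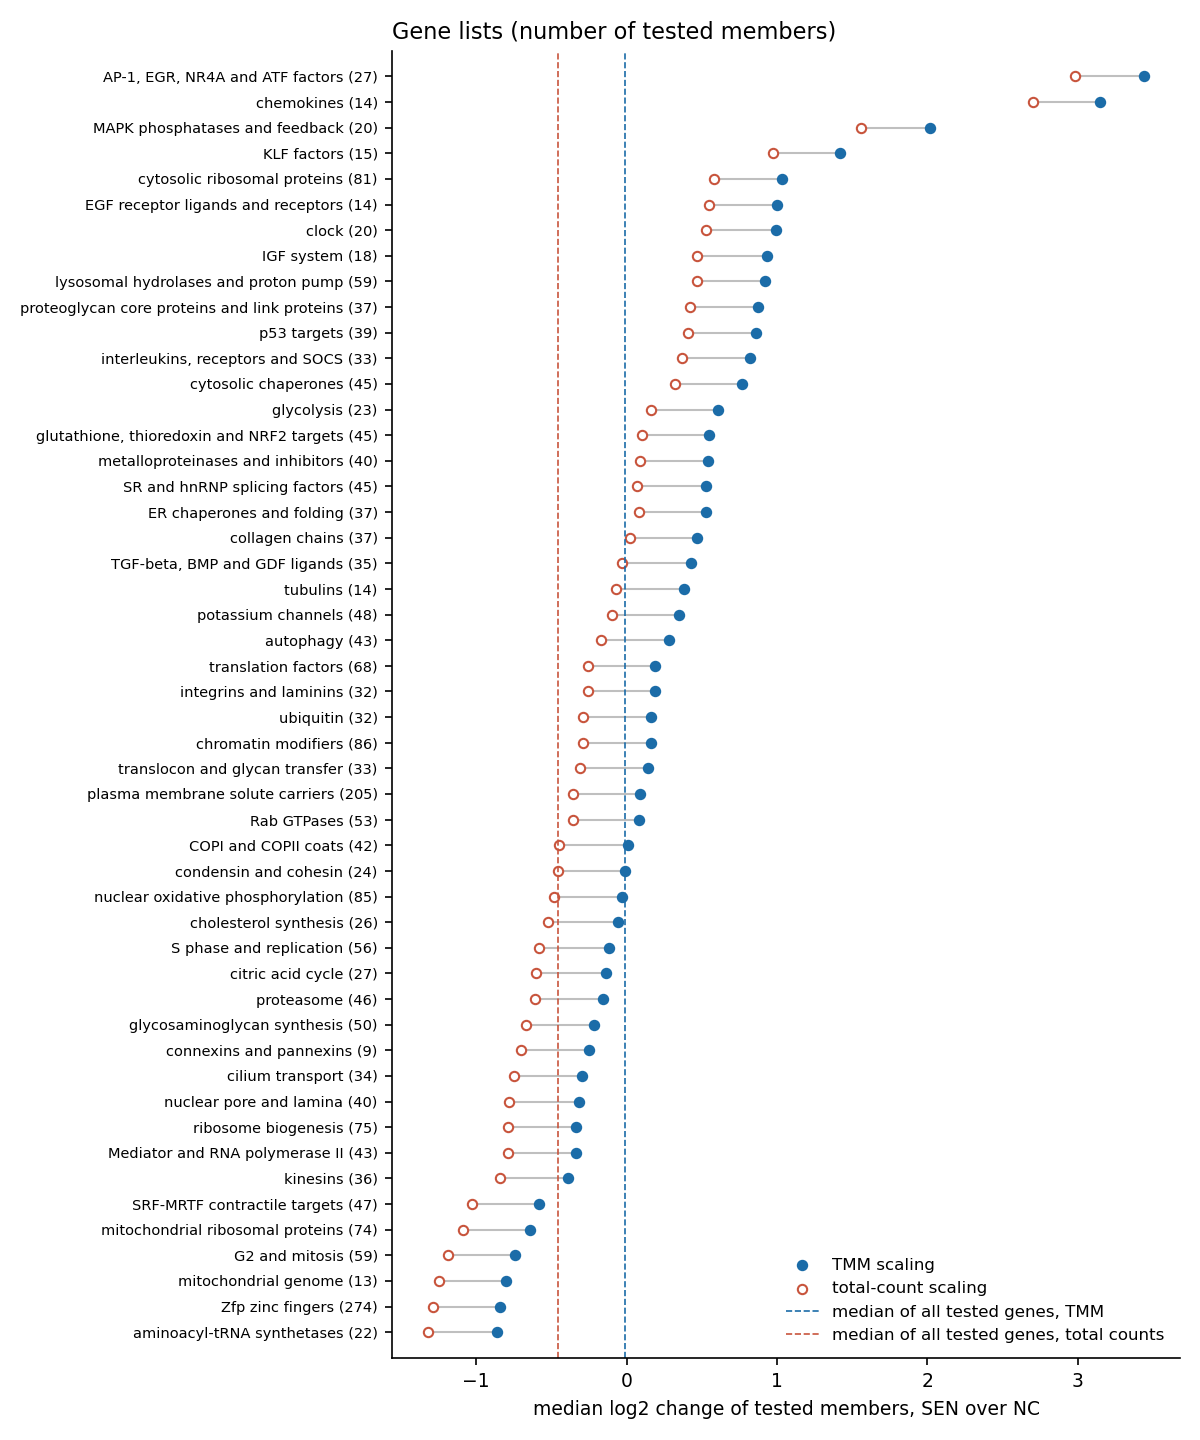
Median log2 change of the tested members of 50 gene lists under TMM (filled) and total counts (open), with the medians of all tested genes as dashed lines. AP-1, EGR, NR4A and ATF factors lie highest at 3.44 and 2.98, aminoacyl-tRNA synthetases lowest at -0.86 and -1.32, and the order of the lists is nearly the same on both scales.

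The groups also differed in which genes filled the libraries. Genes called higher under TMM, chosen here by that change, held 49.8% ± 0.110 of all counts in NC and 73.0% ± 0.211 in SEN (SD, n = 3), and those called lower 35.5% ± 0.127 and 16.2% ± 0.131. The 1000 most abundant genes of a library held 58.2 to 58.3% of its counts in NC and 65.4 to 66.2% in SEN, and the 10 most abundant 10.8 to 11.0% and 10.3 to 10.4%. Cytosolic ribosomal proteins went from 4.87% ± 0.0995 to 7.38% ± 0.634, with SEN 1 highest at 8.11%, cytosolic chaperones from 0.883% ± 0.00811 to 2.31% ± 0.0410, and AP-1 and EGR-type factors from 0.234% ± 0.00229 to 1.5% ± 0.0288. Contractile targets went from 3.96% ± 0.0227 to 1.58% ± 0.00896 and mitochondrially encoded genes from 4.19% ± 0.0620 to 2.27% ± 0.0325. Thbs1, thrombospondin, lost the most CPM of all genes, with 12332, 12523 and 12004 CPM in NC and 3835, 4595 and 4317 CPM in SEN. It fell by a log2 change of -1.08 under TMM and -1.53 under total counts, with no overlap. Sparc and Bgn, matrix protein genes, gained among the most, with 6252, 6154 and 6260.5 CPM in NC and 9976, 9349.9 and 9489 CPM in SEN for Sparc and 3145, 2757 and 2744 CPM in NC and 5454, 5665 and 6067 CPM in SEN for Bgn. Both rose, by a log2 change of 1.08 under TMM and 0.63 under total counts and by 1.44 under TMM and 0.99 under total counts.

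**Figure D5:**
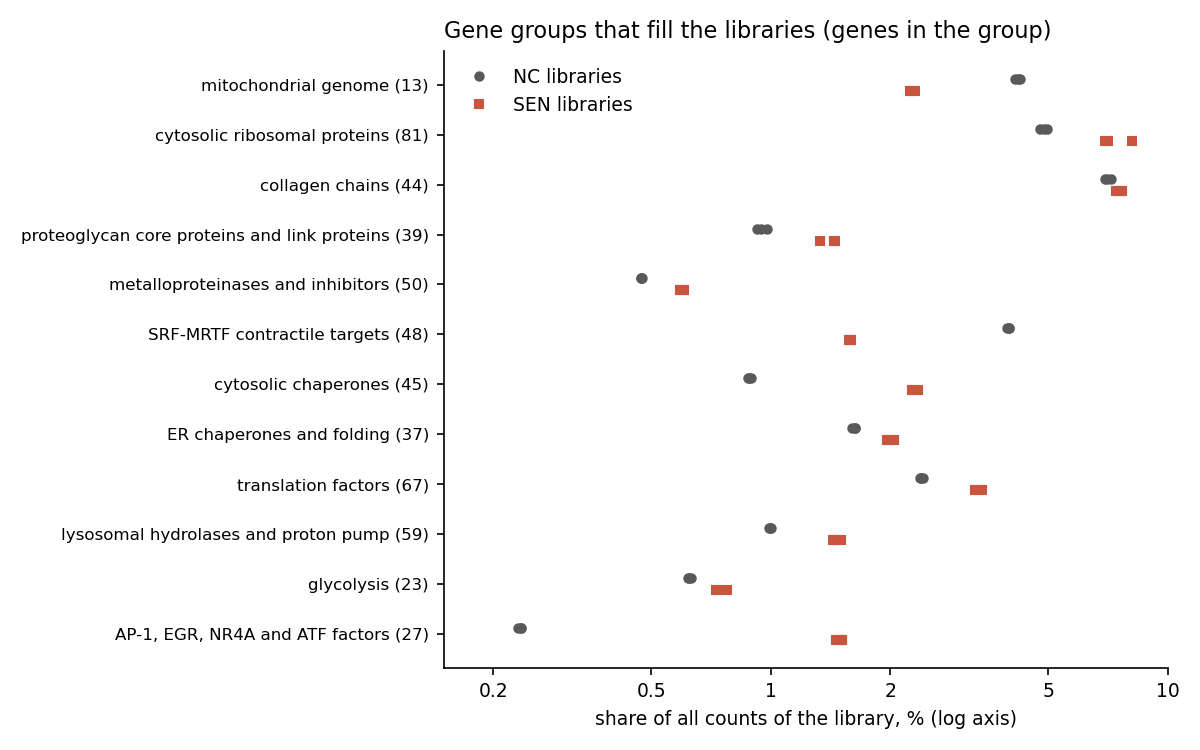
Share of all counts of a library, in percent on a log axis, held by 12 gene groups in each of the 3 NC (grey circles) and 3 SEN libraries (red squares). The groups of libraries are apart for every gene group shown, closest for collagen chains at 6.93 to 7.21% in NC and 7.4 to 7.67% in SEN.

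For 405 genes the scales gave opposite calls, so that their direction is that of the scale chosen. The most abundant was Col1a2, a chain of type I collagen, with 7456, 7109 and 7251 CPM in NC and 6468, 6456 and 6611 CPM in SEN. In CPM every SEN library was below every NC library, and the log2 change was 0.29 ± 0.06 under TMM (SE, adjusted p = 3.95e-04) and -0.16 ± 0.06 under total counts (adjusted p = 0.0255). Thbs2, another thrombospondin, had 1794, 1807 and 1765 CPM in NC and 1543, 1624 and 1651 CPM in SEN and Tpm1, a tropomyosin, 992, 995 and 1012 CPM in NC and 822, 795 and 805 CPM in SEN. The log2 changes were 0.30 and -0.16 for Thbs2 and 0.14 and -0.31 for Tpm1. Serpinh1, the collagen chaperone, Eno1, of glycolysis, Tubb5, a beta-tubulin, Col5a2 and Anxa2, an annexin, had 0.17, 0.27, 0.25, 0.24 and 0.18 under TMM and -0.28, -0.18, -0.20, -0.21 and -0.27 under total counts. The TMM calls of Serpinh1, Tpm1 and Anxa2 ended without any 1 NC library (adjusted p of 0.0508 to 0.1), and those of Serpinh1 and Anxa2 also without SEN 1 (0.103 and 0.131). They ended too with no filter on low counts (0.0929 for Serpinh1, 0.209 for Tpm1 and 0.0907 for Anxa2). With the length trend taken out Tpm1, Eno1 and Tubb5 had log2 changes of 0.01, 0.05 and 0.07 (adjusted p of 0.769, 0.284 and 0.0956). Col1a1, the other chain of type I collagen, was higher under TMM by 0.46 and had 0.00 under total counts.

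Long non-coding genes are counted without known strand, so reads of antisense or overlapping genes cannot be told apart from theirs. Those named here are the extremes among genes without a placeholder symbol and with a mean of at least 5 CPM, not among all non-coding genes. H19, an imprinted growth-related RNA, had 253, 246 and 248 CPM in NC and 717, 671 and 692 CPM in SEN and Gas5, a host of small nucleolar RNAs, 125, 128 and 133 CPM in NC and 307, 261 and 261 CPM in SEN. They rose in each SEN library, by a log2 change of 1.93 under TMM and 1.48 under total counts and by 1.55 under TMM and 1.10 under total counts. Tug1 and the imprinted Meg3 rose by a log2 change of 1.90 (1.44) and 1.49 (1.03). Carmn, a smooth muscle-associated RNA, had 18.1, 18.6 and 18.6 CPM in NC and 6.46, 6.5 and 7.04 CPM in SEN and Fendrr, the neighbour of Foxf1, 9.59, 9.24 and 8.64 CPM in NC and 4.71, 4.78 and 4.81 CPM in SEN. Both fell, by a log2 change of -1.01 under TMM and -1.47 under total counts and by -0.49 under TMM and -0.94 under total counts.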

How the data were processed

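Poly(A) RNA of rat nucleus pulposus cells was measured in 9 libraries of 3 groups, of which the 3 SEN and 3 NC libraries are compared here. Per the submitters' processing notes, the tools included HTSeq, HISAT2 and fastp and the build was mRatBN7.2, with no version or order. The annotation is not given in the sources used here, nor is the strand setting. The authors deposited whole-number counts per gene for 22324 genes, and FPKM values that equal the count over transcript length and total (largest relative difference 6.66e-16). Lengths were taken from that relation, and all tests used the counts as deposited.

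Genes were kept with filterByExpr (14956) and tested with the quasi-likelihood F test of edgeR 4.0.16 (R 4.3.3), fitted to the 9 libraries as 3 groups, with TMM factors and, side by side, with total counts alone (all factors 1). BNPMT libraries, the third group, served to estimate the spread and also entered the filter and the TMM step. Their deviations from the group mean had Spearman correlations of 0.51, -0.43 and -0.32 with transcript length, against -0.42, 0.26 and 0.23 in SEN. With the 6 libraries alone 11219 of the 11382 TMM calls were made in the same direction. Adjusted p-values are from Benjamini-Hochberg adjustment over all tested genes, with a threshold of 0.05, and the SE is the log2 change over the root of F. In a simulation each of 14705 genes had 1 mean level over the 9 libraries, and 100 genes were changed at each fold, equally up and down. The changed genes were drawn only from those above a floor of expected count, so the recovery does not describe genes of few counts. Either scale recovered 70% of the 1.5-fold and 89% of the 2-fold changes, and 5 unchanged genes were called. Without a lopsided change like that between SEN and NC, the simulation cannot tell how either scale does here. CPM are per total count. Alternatives were DESeq2 1.42.0 and its size factors, totals without the 100 most abundant genes, other filters, the 6 libraries alone, a replicate block, a loess curve on length, a 2-fold minimum and each library left out. The loess curve took out each library's mean level along with its length trend. Leaving out libraries under total counts was chosen after seeing the data.

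Genes named were the 12 largest rises and 12 largest falls (mean of at least 5 CPM, called on both scales, no overlap), the 8 largest gains and losses in CPM, up to 4 members a list by smallest adjusted p plus 1 in the other direction, the 8 most abundant genes with opposite calls, genes going on or off, and the extreme non-coding genes. For rises, falls, genes going on or off and non-coding genes, placeholder symbols (such as LOC, RGD or Mir) were left out first. Neighbours and genes with a promoter on display were chosen after their values were seen. Some genes named by the rule are not reported here. The lists and members were chosen with earlier results of these data known. The 50 lists carry no test of their own: their counts and medians stand beside those of all tested genes. Promoters are RefSeq's (GRCr8), and no coordinate was converted between builds.

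The replicate numbers in the titles did not pair the libraries, with correlations of -0.02, 0.06 and -0.01 between same-numbered deviations.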

Additional observations from a re-analysis of the deposited data

How the results depend on the processing

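The 5628 genes higher and 5754 lower under TMM moved by over 1.5 times in 3 instances: total counts alone left 3667 higher, and a tested 2-fold minimum left 2343 higher and 1454 lower. The other alternatives gave 3783 to 6640 higher and 5326 to 8344 lower, and with 1 library left out the counts were 5493 to 5585 and 5575 to 5654 (under total counts 3596 to 3717 and 8215 to 8369, added after the data were seen). Among all calls the share higher was 49.4% under TMM, 30.1% under total counts, 31.2% with totals that leave out the 100 most abundant genes, 38.7% with the length trend taken out and 61.7% with the 2-fold minimum, and 48.5 to 54.8% otherwise. The replicate block gave 5658 higher and 5742 lower, and since the numbers do not pair the libraries it is only an alternative fit. It changed the call of no gene named in the text.

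Reversed signs came from the scale or from the fit that takes out the length trend and mean level. Under total counts the log2 changes turned to -0.05 for Qars1, -0.02 for Rpn2, -0.09 for Zyx, -0.23 for ATP8, -0.16 for Col1a2, -0.21 for Col5a2, -0.28 for Serpinh1, -0.16 for Thbs2, -0.20 for Tubb5, -0.18 for Eno1, -0.31 for Tpm1 and -0.27 for Anxa2. With totals that leave out the 100 most abundant genes they were -0.02 for Qars1, -0.06 for Zyx, -0.20 for ATP8, -0.13 for Col1a2, -0.18 for Col5a2, -0.25 for Serpinh1, -0.12 for Thbs2, -0.17 for Tubb5, -0.15 for Eno1, -0.28 for Tpm1 and -0.24 for Anxa2. With the length trend taken out they were -0.81 for ATP8, -0.04 for Serpinh1 and -0.12 for Anxa2. Those under either total follow from the construction of the scale, which lowers every SEN value. With the length fit, list medians moved down for long and for short transcripts. Chromatin modifiers (median 8059 nt) went from 0.16 to -0.13 and genes of the mitochondrial genome (784 nt) from -0.8 to -1.53. How much of these reversals came from length and how much from the mean level was not tested. The widest counting interval of any gene group's share of a library was 0.0334 percentage points. With 3 libraries a group the spread estimate is limited, and an exact permutation test of a single gene could not go below 0.1.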

Other observations

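Promoter letters differed between the genes called higher and lower on both scales, a comparison made after the data were seen and given without a test. Of 2805 promoters of genes higher on both scales 232 (8.27%) held a TATA box (TATAAA, gene strand, 250 bases before the start) and 193 (6.88%) an AP-1 site (TGANTCA, either strand). Of 4723 promoters of genes lower on both scales 132 (2.79%) and 167 (3.54%) did, against 4.52% and 4.68% of all 11982. The CCAAT box was about equally frequent in both, at 36.6% and 36.3%, as was the SRF CArG box, at 1.25% and 1.21%. The shares describe letters and say nothing of the factors that bind them.

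The shares of calls differed between lengths with no steady trend. In the shortest of 5 equal bins of tested genes (median 1201 nt) 40.2% were higher and 30.8% lower under TMM, in the middle bin (3329 nt) 34.7% and 43.8%, and in the longest (8806 nt) 38.5% and 36.4%. Under total counts the shares were 28.3% and 51.1%, 21.7% and 62.0%, and 25% and 53.7%.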
